A study of Mus musculus with 6 samples.

Results

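Pou5f1, Sox2, Nanog, Sall4, Utf1, Lin28a, Lin28b, L1td1 and Zfp281 are genes of the core pluripotency machinery of mouse embryonic stem cells. They were chosen by name, with no measured value in the rule, but with earlier results of these data known. The same limit holds for the gene lists read beside them. They are 9 of the 56689 identifiers listed in each library. All 9 were among the 14661 genes that entered the test. Messenger RNA was sequenced from 3 libraries labelled Max-KO (genotype Max-/-) and 3 labelled wild type (WT), 6 in all. Both groups are embryonic stem cells of the C57BL/6 strain, and no treatment or reporter is named for either. The sources used here do not say how Max was disrupted, nor whether the Max-KO libraries come from 1 clone or several. No label states that replicates were grown separately, and every p-value therefore measures only the spread between these libraries.

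Embryonic stem cells come from the epiblast of the early embryo and can give rise to every tissue of the body. OCT4, the protein of Pou5f1, binds DNA beside SOX2, and together with NANOG and SALL4 the pair keeps the genes of self-renewal active, their own included. A layer of RNA control runs beside these factors: LIN28 proteins bind the precursors of let-7, a microRNA family known to promote differentiation, and mark them for decay. MAX is the partner through which MYC proteins bind DNA at the E-box, and it is also a subunit of a repressor complex of embryonic stem cells.

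Stretches of 4 promoters are printed because they hold the motifs in which the promoters of these genes differ. Also printed are 2 let-7 microRNAs, whose precursors LIN28 proteins bind, and 3 stretches with letters that match them. Such a match of letters shows no binding. The promoter stretches and microRNAs are credited to RefSeq on build GRCm38.p6, and the matching stretches were read from the GRCm38 genome with GENCODE M21. In the Nanog stretch (chr6:122707379-122707478, plus strand) the capitals mark TTTGCAT and ACAATG, letters known from OCT4 and SOX2 binding sites, which lie 1 base apart. In the Sox2 stretch (chr3:34649855-34649954, plus strand) they mark ATGCAAA, which is TTTGCAT read on the other strand. The Lin28b stretch (chr10:45470202-45470301, minus strand) has the E-box CACGTG in capitals and ends at a RefSeq start that lies inside the GENCODE span of the gene, downstream of its GENCODE start. The Utf1 stretch (chr7:139943666-139943765, plus strand) has overlapping copies of the GC box GGGCGG. None of the 4 stretches overlaps an exon in GENCODE.
Nanog promoter: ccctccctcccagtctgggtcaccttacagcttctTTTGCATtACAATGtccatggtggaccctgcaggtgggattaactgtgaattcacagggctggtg
Sox2 promoter: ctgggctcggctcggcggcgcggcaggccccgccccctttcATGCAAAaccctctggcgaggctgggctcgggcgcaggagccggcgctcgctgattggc
Lin28b promoter: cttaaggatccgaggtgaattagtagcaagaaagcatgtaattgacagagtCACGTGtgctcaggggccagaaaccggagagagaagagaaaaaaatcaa
Utf1 promoter: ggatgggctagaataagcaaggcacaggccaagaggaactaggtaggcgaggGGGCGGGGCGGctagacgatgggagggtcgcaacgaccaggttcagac
For let-7a-5p (chromosome 13) and let-7g-5p (chromosome 9) the capitals mark the seed, bases 2 to 8, which 10 of the 11 mature 5p names of the let-7 and miR-98 family in the table share.
let-7a-5p: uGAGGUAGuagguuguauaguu
let-7g-5p: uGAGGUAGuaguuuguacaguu
The sites below are stretches of 24 bases from 3' untranslated regions, with the letters complementary to the seed in capitals. They lie at chr4:134005188-134005211 in Lin28a, chr10:45381021-45381044 in Lin28b and chr10:120364223-120364246 in Hmga2, all on the minus strand.
Lin28a site: gcacagcctgttgaaCTACCTCat
Lin28b site: acccgggcgggaagtCTACCTCat
Hmga2 site: gccgacattcaatttCTACCTCag

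FPKM, the unit of the deposited values, corrects fragment numbers for the length of the transcript and the size of the library, which lets levels be compared between genes. Summed FPKM was 645169 to 658361 in Max-KO and 743406 to 774405 in WT, and 14108 to 14226 genes reached 1 FPKM in Max-KO against 12587 to 12847 in WT. FPKM does not state the depth, but steps among the low values correspond to an estimated 21.1 to 28.6 M fragments in Max-KO and 22.7 to 25.2 M in WT. WT 3 stood apart from the other 2 WT libraries: 1571 genes with a transcript over 4 kb and under 45% GC had a median log2 deviation of −0.23 there, against 0.02 for 1799 transcripts over 4 kb with at least 50% GC. Max itself averaged 39.6 ± 3.81 FPKM in Max-KO and 44.7 ± 4.78 FPKM in WT (SD, n = 3 each), with overlapping groups, and a gene-level FPKM does not check the genotype. Zfp42 and Esrrb, markers of embryonic stem cells, averaged 69.5 and 200.2 FPKM in Max-KO against 49.7 and 187 FPKM in WT.

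The 9 genes did not move as a block. Sox2, Nanog, Sall4 and Lin28a were higher in Max-KO, Utf1 was lower, and Pou5f1, Lin28b, L1td1 and Zfp281 did not pass the test (limma on log2(FPKM + 1), 2-sided, Benjamini-Hochberg adjusted p under 0.05 over all genes tested). The 5 called genes of 9 stand beside 66.2% called among all genes tested. The 4 higher stand beside 43% of all genes called higher, and the 1 lower beside 23.2% called lower. The 3 values of each group did not overlap for 8 of the 9 genes, 7 of them higher in Max-KO. Among all genes tested 72% did not overlap, 46.3% higher and 25.7% lower. The median log2 difference of the 9 genes was 0.40 and that of all genes tested was 0.21, with 6 of the 9 above 0.21.

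**Figure D1:**
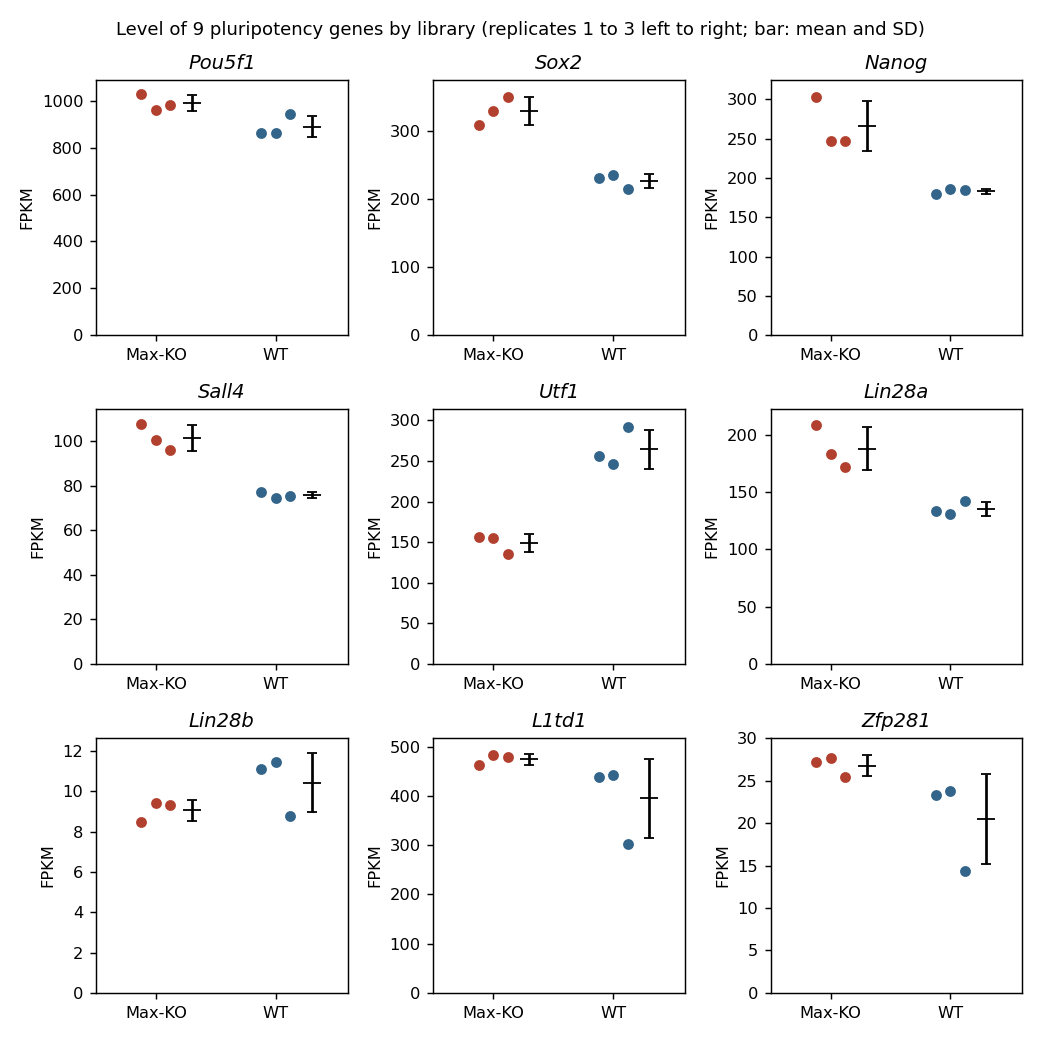
FPKM of each of the 9 genes (vertical axes, each from 0) in the Max-KO libraries, left, and the WT libraries, right. Points are replicates 1 to 3 and bars are the mean and SD. Utf1 is the gene with all Max-KO values below WT, and WT 3 is the low point of Lin28b, L1td1 and Zfp281.

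Pou5f1 (ENSMUSG00000024406; GRCm38 chromosome 17, 35506018 to 35510772, plus strand) encodes OCT4 and was the most abundant of the 9 in both groups. Its level was 1030, 962 and 985 FPKM in Max-KO 1 to 3, against 864, 865 and 943 FPKM in WT 1 to 3. Every Max-KO library was above every WT library, and WT 3 came closest. The means were 992 ± 34.7 FPKM in Max-KO and 891 ± 45.4 FPKM in WT (SD, n = 3 each), 1.11-fold. The log2 difference of 0.16 ± 0.06 (SE, 95% interval 0.02 to 0.30) missed the threshold (limma, adjusted p = 0.0517) and lay 0.05 below the median of all genes. It was −0.10 when libraries were scaled by their median ratio over genes (median-ratio scaling), and 0.37 and called when each library was rescaled to the same sum (TPM), so its direction depended on the scaling. Gm19553, an antisense gene that overlaps it, averaged 2.39 FPKM in Max-KO and 0.42 FPKM in WT. The strand setting of the kit was not given in the sources used here, and reads of a gene and its antisense partner cannot then be told apart.

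Sox2 (ENSMUSG00000074637; chromosome 3, 34650405 to 34652461, plus strand), the HMG-box partner of OCT4, was higher in Max-KO. It stood at 308.5, 330.0 and 350.6 FPKM in Max-KO 1 to 3, against 231, 235 and 214 FPKM in WT 1 to 3. The groups were separated by a gap wider than the range of either. The fold was 1.45, with a log2 difference of 0.54 ± 0.07 (SE, 95% interval 0.38 to 0.69; limma, adjusted p = 0.000373). Sox2 lies within Sox2ot, a noncoding transcript on the same strand, whose own FPKM averaged 46.0 in Max-KO and 27.02 in WT (log2 difference 0.74, limma adjusted p = 0.00203).

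Nanog (ENSMUSG00000012396; chromosome 6, 122707489 to 122714633, plus strand), a homeobox factor that sustains self-renewal, was also higher. Its values were 303, 248 and 247 FPKM in Max-KO 1 to 3, against 179, 186 and 185 FPKM in WT 1 to 3. The WT libraries lay within a few FPKM of one another, whereas Max-KO 1 stood above the other Max-KO libraries. Nanog was 1.45-fold higher, with a log2 difference of 0.53 ± 0.09 (SE, 95% interval 0.33 to 0.73; limma, adjusted p = 0.00134). Without Max-KO 1 the log2 difference was 0.43 and still passed.

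Sall4 (ENSMUSG00000027547; chromosome 2, 168748332 to 168767943, minus strand) encodes a zinc finger factor that binds OCT4 and NANOG and recruits NuRD, a chromatin remodelling and deacetylase complex. It read 107, 101 and 95.8 FPKM in Max-KO 1 to 3, against 77.3, 74.6 and 75.2 FPKM in WT 1 to 3. All Max-KO libraries were above all WT libraries. The fold was 1.34 and the log2 difference 0.41 ± 0.06 (SE, 95% interval 0.28 to 0.55; limma, adjusted p = 0.000632).

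Utf1 (ENSMUSG00000047751; chromosome 7, 139943789 to 139945112, plus strand), a chromatin-bound protein known as a target of OCT4 and SOX2, went the other way. Its level was 156, 155 and 136 FPKM in Max-KO 1 to 3, against 256, 246 and 292 FPKM in WT 1 to 3. The highest Max-KO library was well below the lowest WT library. Utf1 averaged 149 ± 11.2 FPKM in Max-KO and 265 ± 23.9 FPKM in WT (SD, n = 3 each), a fold of 0.563. The log2 difference was −0.82 ± 0.08 (SE, 95% interval −1.02 to −0.62; limma, adjusted p = 0.000162), and −1.03 relative to the median of all genes. It was −0.34 after the correction for GC content and length, where it was still called. Its longest transcript has 63.5% GC, the highest of the 9.

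Zfp281 (ENSMUSG00000041483; chromosome 1, 136624901 to 136630053, plus strand) encodes a zinc finger factor known to bind NANOG and restrain Nanog transcription. It had 27.2, 27.7 and 25.4 FPKM in Max-KO 1 to 3, against 23.3, 23.8 and 14.4 FPKM in WT 1 to 3. The groups did not overlap, but WT 1 and WT 2 lay just under the Max-KO values and WT 3 far below them. The log2 difference of 0.40 ± 0.18 (SE, 95% interval −0.03 to 0.83) missed the threshold (limma, adjusted p = 0.0904).

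Among the RNA-binding members, Lin28a (ENSMUSG00000050966; chromosome 4, 134003330 to 134018841, minus strand) was higher in Max-KO. It measured 208, 183 and 172 FPKM in Max-KO 1 to 3, against 134, 131 and 142 FPKM in WT 1 to 3. The groups were separate, with the widest spread inside Max-KO. The fold was 1.39 and the log2 difference 0.46 ± 0.08 (SE, 95% interval 0.28 to 0.65; limma, adjusted p = 0.00171).

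Lin28b (ENSMUSG00000063804; chromosome 10, 45376620 to 45486395, minus strand), its paralog, was the least abundant of the 9. It had 8.46, 9.41 and 9.32 FPKM in Max-KO 1 to 3, against 11.1, 11.4 and 8.76 FPKM in WT 1 to 3. The groups overlapped through WT 3, which fell among the Max-KO values. The log2 difference of −0.18 ± 0.11 (SE, 95% interval −0.44 to 0.09) was not called (limma, adjusted p = 0.202). It was −0.41 and called under median-ratio scaling, and 0.02 after rescaling to TPM.

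L1td1 (ENSMUSG00000087166; chromosome 4, 98726734 to 98738480, plus strand) encodes an RNA-binding protein derived from a LINE-1 element and ranked below only Pou5f1. Its level was 462, 482 and 478 FPKM in Max-KO 1 to 3, against 439, 442 and 303 FPKM in WT 1 to 3. The groups did not overlap, and the mean of WT, 395 ± 79.7 FPKM (SD, n = 3), was drawn down by WT 3. The log2 difference was 0.28 ± 0.15 (SE, 95% interval −0.06 to 0.63; limma, adjusted p = 0.124).

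Of the 4 genes that missed the threshold, 3 had their lowest WT value in WT 3. Its log2 deviation from the mean of WT 1 and WT 2 was −0.67 for Zfp281, −0.54 for L1td1 and −0.33 for Lin28b, against 0.13 for Pou5f1 and 0.22 for Utf1; for Sox2, Nanog, Sall4 and Lin28a it was −0.12 to 0.10. Zfp281 and Lin28b have long, AT-rich transcripts, of 4937 bases with 43.1% GC and of 5402 bases with 40.6% GC, and that of L1td1 has 2942 bases with 47.8% GC. The 4339 genes with transcripts under 2 kb deviated by a median of 0.04 in WT 3. With that library left out, all 9 genes were called, 7 higher and 2 lower in Max-KO, beside 64.2% of all genes called in the same fit, 41.6% higher and 22.6% lower. The log2 difference was then 0.20 for Pou5f1 (limma, adjusted p = 0.00658), 0.10 for L1td1 (adjusted p = 0.0432), 0.18 for Zfp281 (adjusted p = 0.0457) and −0.29 for Lin28b (adjusted p = 0.0235). The median of all genes in that fit was 0.188. L1td1 and Zfp281 lay below this median and Pou5f1 close to it, so their calls do not set them above genes in general. Whether transcript length or base composition accounts for the WT 3 values of these genes was not tested.

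**Figure D2:**
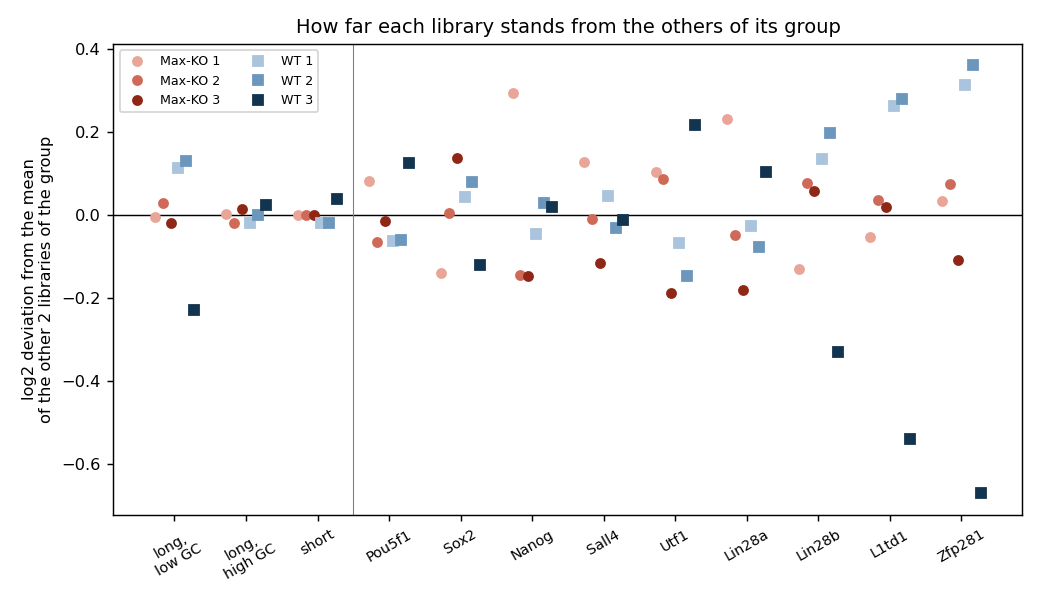
Log2 deviation of each library from the mean of the other 2 libraries of its group (vertical axis), for 3 classes of genes as medians, left of the line, and for each of the 9 genes. Circles are Max-KO and squares WT; WT 3 is at −0.23 for long transcripts of low GC and at −0.67 for Zfp281.

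The scaling between libraries moved every one of the 9 genes. The median of all genes, 0.21 in the unscaled values, was −0.03 with median-ratio scaling, −0.02 with quantile normalization and 0.43 in TPM. Of all calls 64.9% were higher in Max-KO without scaling, 47% with median-ratio scaling, 46.7% with quantile normalization and 77.7% in TPM. Sox2 at 0.28 and Nanog at 0.28 kept their calls under median-ratio scaling, while Sall4 at 0.16 (adjusted p = 0.0576) and Lin28a at 0.21 (adjusted p = 0.0713) lost theirs. Under quantile normalization Sall4 at 0.49 and Lin28a at 0.64 kept their calls, as did Sox2 at 0.79 and Nanog at 0.77. Utf1 was lower and called under every scaling tried, between −1.08 with median-ratio scaling and −0.61 with quantile normalization or TPM.

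**Figure D3:**
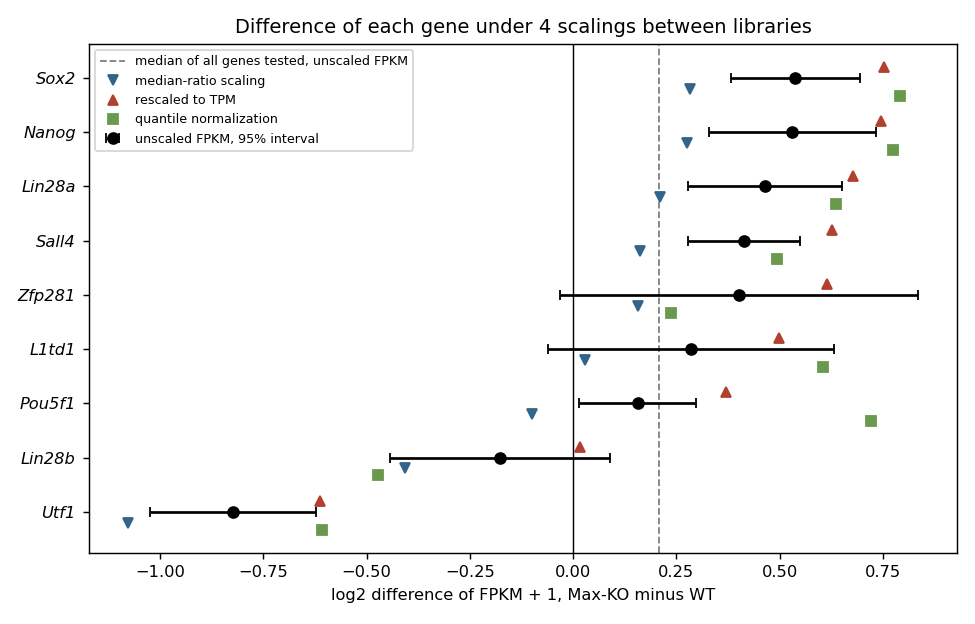
Log2 difference of FPKM + 1, Max-KO minus WT (horizontal axis), for each gene in unscaled FPKM with its 95% interval and under 3 scalings between libraries. The dashed line is the median of all genes tested, 0.21; Utf1 is below 0 under all 4, and Pou5f1 and Lin28b are on both sides of 0.

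Ratios of 2 genes within a library are not moved by a factor applied to the whole library, as in TPM or median-ratio scaling, but they do change under quantile normalization and the GC and length correction. Pou5f1 was the denominator for 4 of the 8 pairs. The ratio of Utf1 to Pou5f1 was 0.151, 0.161 and 0.138 in Max-KO 1 to 3, against 0.296, 0.285 and 0.309 in WT 1 to 3. In Max-KO it was 0.505 times its WT value (difference of the mean log2 ratio −0.98). Sox2 to Pou5f1 was 0.299, 0.343 and 0.356 in Max-KO 1 to 3 against 0.267, 0.271 and 0.227 in WT 1 to 3, which is 1.30-fold. Nanog to Pou5f1 was 0.295, 0.258 and 0.251 in Max-KO 1 to 3 against 0.208, 0.214 and 0.196 in WT 1 to 3, also 1.30-fold. The ratio of Nanog to Sox2 overlapped between groups, at 0.984, 0.751 and 0.706 in Max-KO 1 to 3, against 0.776, 0.791 and 0.863 in WT 1 to 3. Sall4 to Pou5f1 was 0.0973 to 0.105 in Max-KO, against 0.0798 to 0.0895 in WT, 1.20-fold. These differences depended on the processing: in log2, Sox2 to Pou5f1 was 0.38 as deposited, 0.07 under quantile normalization and 0.14 with the GC and length correction. For Nanog to Pou5f1 the values were 0.38, 0.05 and −0.06, and for Sall4 to Pou5f1 0.26, −0.23 and 0.09, so both changed sign under 1 of the 2. Utf1 to Pou5f1 was below 0 in all 3, at −0.98, −1.33 and −0.80. These alternatives were chosen after seeing the data.

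Lin28b to Lin28a was 0.0406, 0.0514 and 0.0542 in Max-KO 1 to 3, against 0.0829, 0.0876 and 0.0616 in WT 1 to 3, a fold of 0.632. The paralogs thus differed in their relative levels with no overlap between groups, although Lin28b alone was not called. Zfp281 to Nanog (0.925-fold) and L1td1 to Lin28a (0.881-fold) overlapped between groups. With 3 libraries against 3 the exact permutation test has 20 splits and cannot go below p = 0.1. The 5 ratios without overlap all had that smallest p (2-sided, 0.16 adjusted over the 8 ratios); the exact p was 1 for Nanog to Sox2, 0.7 for Zfp281 to Nanog and 0.6 for L1td1 to Lin28a.

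**Figure D4:**
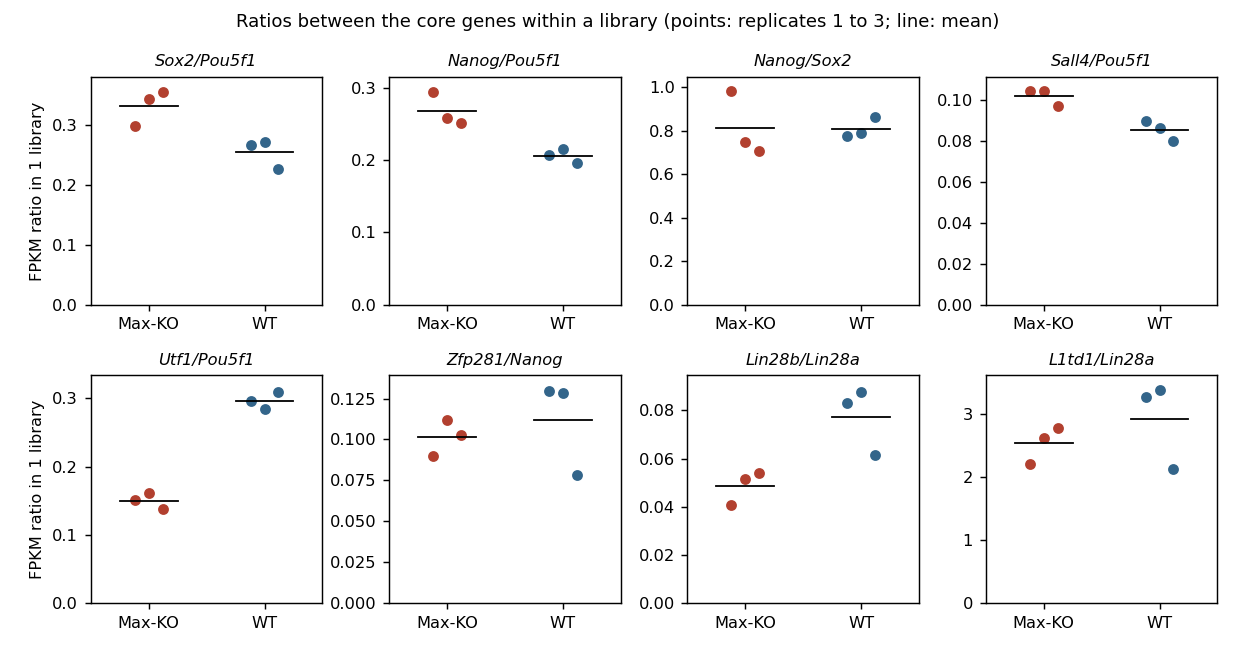
FPKM ratio of 2 genes within a library (vertical axes, each from 0) for 8 pairs, Max-KO left and WT right. Points are replicates 1 to 3 and lines are means; Utf1 to Pou5f1 shows the widest gap, at most 0.161 in Max-KO and at least 0.285 in WT, and Nanog to Sox2 overlaps.

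The order of levels was stable apart from Utf1. In Max-KO it ran Pou5f1, L1td1, Sox2, Nanog, Lin28a, Utf1, Sall4, Zfp281 and Lin28b, and the ranges of neighbours did not overlap. In WT, Utf1 stood at rank 3, between L1td1 and Sox2, instead of rank 6, and the other 8 genes kept the same order, again without overlap of neighbours. The 9 genes together held 0.380% to 0.405% of a library's summed FPKM in Max-KO and 0.281% to 0.298% in WT. Dividing by the summed FPKM is the rescaling to TPM. On that scale tested genes in general shifted upward in Max-KO, by 0.43 in log2 at the median. A larger share in Max-KO therefore does not by itself set these 9 genes apart. In bulk RNA, fewer cells with a transcript and less of it per cell cannot be told apart.

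The genes nearest in pattern over the 6 libraries were found by the root mean square difference of centred log2(FPKM + 1) profiles, among 7534 genes averaging at least 10 FPKM. For Pou5f1 they were Sh3gl1, Ddx39b and Psmd10 (0.0215 to 0.0232), and for Sox2 they were Pphln1, Slc31a1 and Zfp217 (0.0343 to 0.0408). Src, Nipa2 and Rab27a came nearest to Nanog, Kctd9, Ipo8 and Akirin1 to Sall4, and Itga5, Hspb1 and Cry2 to Lin28a. Utf1 was nearest to Pgd, Gm10123 and Tecr, which were lower in Max-KO with log2 differences of −0.83 to −0.88. The choice by nearness fixes that direction, and shared regulation was not tested. Rbm26, Zfp280d and 2700099C18Rik were nearest to Zfp281, Cenpc1, R3hdm1 and Atp11b to L1td1, and Ascc3, Sec61a2 and Ppip5k2 to Lin28b.

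Promoter letters were scanned on both strands in windows of 300 bases, from 250 before to 50 after each RefSeq start. The table's windows matched 8 of the 9 genes, all but Sall4, with 10 windows, against 32851 windows in all. The OCT4-type letters TTTGCAT occurred in the windows of Nanog and Sox2, and in 4.63% of all windows. ACAATG occurred in those of Nanog, Pou5f1 and Lin28a (12.6% of all), and the longer ATGCAAAT, which contains the reverse complement of TTTGCAT, in none (1.74% of all). The E-box CACGTG printed for Lin28b was in no other window of the 8 genes and in 7.15% of all windows. The wider CANNTG, which includes CACGTG, was in the windows of Lin28b, Nanog, Pou5f1 and Sox2 (72.3% of all). GC boxes, GGGCGG, were in windows of Utf1, Sox2, Pou5f1, Lin28a and Zfp281 (35.7% of all), and TTCCCGC, letters known from E2F sites, in that of Zfp281 (4.6% of all). A match describes the letters in a window and shows no binding.

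Factors of naive pluripotency, the ground state, had 10 of 13 genes higher in Max-KO and 1 lower, beside 43% and 23.2% of all genes. The median log2 difference of the list was 0.95 beside 0.21 for all genes. Tbx3, a T-box repressor, had 32.7, 30.3 and 32.9 FPKM in Max-KO 1 to 3, against 4.83, 4.25 and 3.82 FPKM in WT 1 to 3, the widest separation of the list (log2 difference 2.64 ± 0.09 SE, limma adjusted p = 2.86e-06). Tfcp2l1 and Klf4, both naive transcription factors, had log2 differences of 1.53 ± 0.06 and 1.39 ± 0.07. Nr0b1, a nuclear receptor that binds OCT4, was the gene that fell, with 58.0 FPKM in Max-KO and 76.9 FPKM in WT (−0.40 ± 0.05 SE, limma adjusted p = 0.000472). The changes of Sox2 and Nanog, at 0.54 and 0.53, were thus smaller than the list's median; this difference was not tested.

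Formative and primed genes, which mark the exit from the naive state, split. Of 9 tested of 12 listed, 3 were higher and 4 lower in Max-KO, beside 43% and 23.2% of all genes, with a median of −0.53. Dnmt3b, a DNA methyltransferase, fell to 39.8 ± 6.34 FPKM in Max-KO, against 85.5 ± 1.06 FPKM in WT (SD, n = 3 each; log2 difference −1.10, limma adjusted p = 0.000155). Cdh2, or N-cadherin, was at 1.19 FPKM in Max-KO and 3.35 FPKM in WT (−0.99). Sox3, a relative of Sox2, was higher in Max-KO, at 6.10, 4.18 and 3.97 FPKM in Max-KO 1 to 3, against 0.79, 1.15 and 1.19 FPKM in WT 1 to 3 (1.48 ± 0.17 SE, limma adjusted p = 0.000266).

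Genes listed for elements that OCT4 and SOX2 are known to bind also went both ways, 2 higher and 3 lower of 6. How the factors are arranged on each element was not examined. Of all genes 43% were higher and 23.2% lower, and the list's median was −0.07. Upp1, uridine phosphorylase, had 84.4, 123 and 76.0 FPKM in Max-KO 1 to 3, against 514, 513 and 596 FPKM in WT 1 to 3 (log2 difference −2.53 ± 0.18 SE, limma adjusted p = 4.72e-05). Lefty1, a Nodal inhibitor, had 60.7 FPKM in Max-KO and 219 FPKM in WT (−1.87). Spp1, osteopontin, was higher at 632 FPKM in Max-KO and 466 FPKM in WT (0.44), a call lost under median-ratio scaling (0.18). Utf1, which belongs to this class of targets by its known regulation, was lower in Max-KO like 3 of these 6 genes.

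Transcription and chromatin partners of the core factors had 8 of 21 genes higher and 3 lower, beside 43% and 23.2% of all genes. Their median of 0.10 was below that of all genes. Nipbl, the cohesin loader, was at 36.0, 36.7 and 31.1 FPKM in Max-KO 1 to 3, against 14.3, 17.8 and 7.52 FPKM in WT 1 to 3. Rif1, a telomere and replication timing protein, was at 167 ± 9.76 FPKM in Max-KO and 73.5 ± 25.9 FPKM in WT (SD, n = 3 each). For both genes WT 3 was the lowest library, as it was for Zfp281, and their log2 differences were 1.40 and 1.24 with it but 1.07 and 0.91 without it. Zfp462 was higher as well (1.09 ± 0.09 SE), and Smarcc1, a BAF remodeller subunit, fell to 65.5 FPKM in Max-KO, against 98.2 FPKM in WT (−0.58 ± 0.05 SE). Under median-ratio scaling the counts were 7 higher and 9 lower, beside 30.4% and 34.3% of all genes.

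Subunits of NuRD, which SALL4 and ZFP281 are known to recruit, had 7 of 13 higher and 4 lower. Of all genes 43% were higher and 23.2% lower, and the list's median was 0.15. Mbd3, a subunit that holds the complex together, had 46.8, 47.3 and 45.6 FPKM in Max-KO 1 to 3, against 103, 115 and 128 FPKM in WT 1 to 3. Mta1, a scaffold for the deacetylases, had 18.6 ± 0.711 FPKM in Max-KO and 42.5 ± 0.263 FPKM in WT (SD, n = 3 each). Both fell, with log2 differences of −1.28 ± 0.08 and −1.15 ± 0.06 (SE; limma, adjusted p = 1.95e-05 and 7.74e-06). Their paralogs Mbd2 and Mta2 were higher in Max-KO, at 0.50 and 0.37, whereas Mta3, the other Mta1 paralog, was lower (−0.18, limma adjusted p = 0.0258). The remodeller Chd3 had 18.3 FPKM in Max-KO and 11.3 FPKM in WT (0.65). Chd4, the main remodeller, was at 152 FPKM in Max-KO and 157 FPKM in WT and was not called. With median-ratio scaling the counts turned to 2 higher and 6 lower, beside 30.4% and 34.3% of all genes. The naming of Mbd2, Mta2, Mta3 and Chd4 followed a look at their values.

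The let-7 axis was read through its enzymes and targets, because microRNAs themselves were not measured here. Enzymes of microRNA processing and of the LIN28 decay route had 5 of 8 genes higher and 1 lower, beside 43% and 23.2% of all genes. Their median was 0.30. Tut4, the terminal uridylyl transferase that LIN28 recruits to let-7 precursors, had 37.4, 46.1 and 46.8 FPKM in Max-KO 1 to 3, against 19.1, 21.02 and 11.3 FPKM in WT 1 to 3. Its relative Tut7 had 27.1 ± 0.593 FPKM in Max-KO and 15.7 ± 1.64 FPKM in WT (SD, n = 3 each). Both uridylyl transferases were higher in Max-KO, with log2 differences of 1.33 ± 0.23 and 0.75 ± 0.08 (SE; limma, adjusted p = 0.00225 and 0.000242). Lin28a was called higher too, as were 43% of all genes, and a link between them was not tested. Within Max-KO, Lin28a was highest in Max-KO 1, where Tut4 was lowest. For Tut4, WT 3 was again the lowest library, and the difference was 1.07 without it. Dis3l2, the nuclease that degrades the tailed precursors, had a smaller difference of 0.33 ± 0.07, which was −0.03 after the GC and length correction. Xpo5, the exporter of precursors, was lower in Max-KO (−0.26), a call lost after rescaling to TPM. With median-ratio scaling this list had 2 higher and 3 lower, beside 30.4% and 34.3% of all genes.

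Of the 20 textbook let-7 targets 11 were higher in Max-KO and 4 lower, beside 43% and 23.2% of all genes, with a median of 0.49. Ccnd2, 1 of the 11, averaged under 1 FPKM in WT, so the filter fixed its direction. Hmga2, an architectural chromatin protein, had 29.0, 24.6 and 30.8 FPKM in Max-KO 1 to 3, against 1.77, 2.41 and 2.46 FPKM in WT 1 to 3. That is 12.7-fold, the largest change of the list (log2 difference 3.18 ± 0.13 SE, limma adjusted p = 3.97e-06). Myc, with 96.7 FPKM in Max-KO and 17.0 FPKM in WT, was the next (2.45). Hmga1, the paralog of Hmga2, went the opposite way, at 377 ± 14.3 FPKM in Max-KO and 1056 ± 92.8 FPKM in WT (SD, n = 3 each; −1.48 ± 0.07 SE, limma adjusted p = 8.00e-06). The letters CTACCTC, complementary to the let-7 seed, occurred in the 3' untranslated regions of 3 of the 9 core genes, 4 times in Lin28b, 2 times in Lin28a and 1 time in Sall4. Of the 20 targets 12 held them, among them Hmga2 with 4 copies and Nr6a1 with 8, against 9.02% of 21028 genes with such a region. Myc held none in its longest annotated region. The target list was drawn from genes known for such sites, so that share is no finding.

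POU, SOX and SALL relatives and Zfp148, the paralog of Zfp281, had 14 of 22 genes tested, 5 higher and 4 lower. Of all genes 43% were higher and 23.2% lower, and the list's median was 0.23. Sox12 had 2.48 FPKM in Max-KO and 11.04 FPKM in WT (−1.79 ± 0.09 SE, limma adjusted p = 1.00e-05), and Pou3f1, a factor of the primed state, 1.10 FPKM in Max-KO and 2.98 FPKM in WT (−0.93). Sall1 had the highest mean of these relatives, 53.5 FPKM in Max-KO and 45.6 FPKM in WT, and was not called. Of the genes called higher, Sox17 was under 1 FPKM in WT, so the filter fixed its direction. The count of higher genes was 9 in TPM and 1 with quantile normalization, beside 53.3% and 28.8% of all genes.

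**Figure D5:**
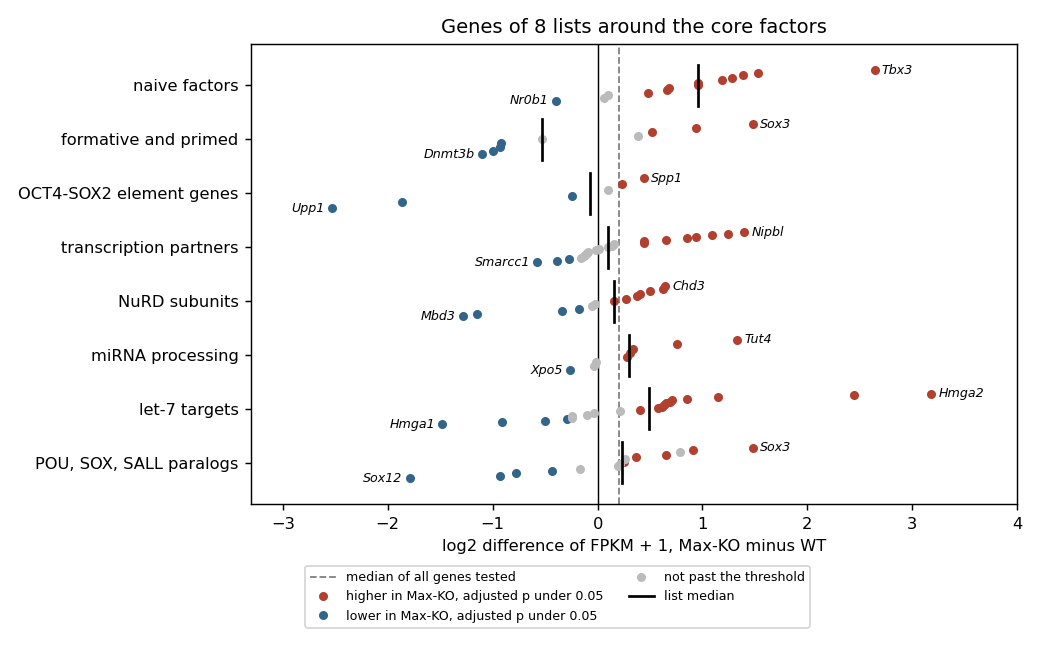
Log2 difference of FPKM + 1, Max-KO minus WT (horizontal axis), for every tested gene of 8 lists, 1 point per gene, with the list's median as a bar and that of all genes (0.21) as a dashed line. Naive factors have a median of 0.95 and formative and primed genes of −0.53; the lowest and highest gene of each list is named.

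Markers of other cell types were read beside these results, with 43% of all genes tested called higher and 23.2% lower. Of 10 germ cell markers 9 were tested and 8 were called higher. The 10 summed to 919 to 958 FPKM in Max-KO and 44.9 to 51.8 FPKM in WT. Tdrd9, 1 of the 8, was under 1 FPKM in WT, so its direction was fixed by the filter. All 8 markers of the 2-cell-like state were called higher, with 52.0 to 70.7 FPKM in Max-KO and 0 to 0.12 FPKM in WT, and each was under 1 FPKM in WT, so the filter fixed their direction; the Zscan4 copies among them share reads. Of 8 primitive endoderm markers 4 were tested, and all 4 were called higher. The 8 summed to 6.01 to 10.9 FPKM in Max-KO and 1.97 to 2.43 FPKM in WT. Of the 4 called, 3 (Gata4, Sox17 and Pdgfra) were under 1 FPKM in WT and likewise fixed in direction. Of 8 trophoblast markers 7 were tested and 5 were called higher. The 8 summed to 107 to 121 FPKM in Max-KO and 88.8 to 97.7 FPKM in WT. The same limit held for Elf5 and Gata3, 2 of the 5. Early germ layer markers summed to 7.13 to 8.89 FPKM in Max-KO and 13.1 to 14.3 FPKM in WT, with Cer1 listed at 0 in all libraries. Only 2 of the 10, Pax6 and Nes, entered the test, and both were lower. Mixl1, Sox1 and Foxa2, each under 1 FPKM in both groups and not tested, were higher in Max-KO without overlap. Fibroblast markers, those of feeder cells, summed to 8.11 to 10.3 FPKM in Max-KO and 8.11 to 8.38 FPKM in WT. Of these 8 only 2 were tested, and 1 was called higher. The part of these cell states in the differences of the 9 genes was not tested.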

How the data were processed

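Messenger RNA was measured in 3 Max-KO and 3 WT libraries of mouse embryonic stem cells. The deposited values are FPKM made by the authors, 1 per gene and library, with no scaling across libraries seen in them; that the unit is FPKM was read from the files. RNA was extracted with Trizol and libraries were made with an Illumina TruSeq RNA kit, per the labels' protocols. Per the submitters' processing notes, the build was GRCm38.p6 and the tools, whose roles are not stated, were DESeq 1.26.0, RSEM, HISAT2 2.1.0 and FastQC. Symbols and coordinates came from GENCODE M21 (GRCm38).

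Genes with a mean of 1 FPKM or more in either group entered the test. In R 4.3.3, limma 3.58.1 fitted log2(FPKM + 1), a pseudocount of 1, with genotype as the only factor and with trend and robust moderation. Adjusted p-values of genes are from that fit, and the log2(FPKM + 1) scale understates changes of low genes. Groups follow the labels. Ratios were compared with exact permutation tests in Python 3.11.15 with scipy 1.17.1. Depth was estimated from the steps among low FPKM values, with 84.0% to 87.5% of those values within 0.15 of a whole multiple; the step was chosen to maximise this share, so it tests nothing. Alternatives were a pseudocount of 0.1, no filter, TPM, median-ratio and quantile scaling, limma without moderation options, nuclear protein-coding genes alone, a GC and length correction (mgcv 1.9.3), a replicate block and leaving out each library; quantile normalization and the GC and length correction were applied to the ratios after seeing the data.

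The named genes are the 9 core genes, the 3 called genes of each list with the largest log2 difference and the largest in the other direction, and the 3 nearest patterns per core gene. The members and lists were chosen with earlier results of these data known. The fit was tested on simulated data. The share of planted changes recovered depended on the spread simulated, and the criterion for passing was revised after the first versions missed it. The false share of calls was 6.5%, above the adjusted p of 0.05 aimed at but within the revised criterion. In the simulation 12597 of 12797 genes were unchanged and no shift of all genes was planted. In these data 66.2% of genes were called, so the 6.5% does not carry over to these calls.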

Additional observations from a re-analysis of the deposited data

How the results depend on the processing

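Without a library, 4 to 7 core genes were called higher and 1 to 2 lower, the 7 and 2 without WT 3. All genes called in these fits were 39.5% to 41.6% higher and 21% to 22.6% lower. The log2 differences then ranged from 0.13 to 0.20 for Pou5f1, 0.49 to 0.59 for Sox2, 0.43 to 0.58 for Nanog, 0.37 to 0.45 for Sall4, −0.87 to −0.75 for Utf1, 0.39 to 0.53 for Lin28a, −0.29 to −0.11 for Lin28b, 0.10 to 0.38 for L1td1 and 0.18 to 0.52 for Zfp281. Of OCT4-SOX2 element genes 1 to 2 were called higher, the 1 without Max-KO 2, Max-KO 3, WT 1 or WT 2, and of paralogs 2 to 4, with 2 without Max-KO 2 or WT 1 and 3 without Max-KO 3 or WT 3. Sox2, Nanog and Utf1 kept their calls under every alternative run. Pou5f1 passed at 0.16 with a pseudocount of 0.1 (adjusted p = 0.0498), at 0.16 among nuclear protein-coding genes (0.0456), at 0.37 in TPM, at 0.72 under quantile normalization and at 0.46 with the GC and length correction, and reversed to −0.10 under median-ratio scaling (limma adjusted p = 0.300). Sall4 (0.16) and Lin28a (0.21) lost their calls under median-ratio scaling. Lin28b was 0.017 in TPM, and it was called at −0.41 under median-ratio scaling, −0.47 under quantile normalization and −0.50 with the GC and length correction. L1td1 was called at 0.50 in TPM and 0.61 under quantile normalization, and Zfp281 at 0.61 in TPM. The core genes called higher were 7 in TPM, beside 53.3% of all genes, 2 under median-ratio scaling, beside 30.4%, and 6 under quantile normalization, beside 28.8%. Those called lower were 2 under median-ratio scaling, quantile normalization and the GC and length correction, beside 34.3%, 33% and 22.3% of all genes. All genes called lower in TPM were 15.2%. Those called higher were 28.8% under quantile normalization and 43.2% with the GC and length correction. In TPM, lists had 13 partners and 9 paralogs higher, 2 NuRD subunits lower and 0 microRNA processing genes lower (limma; 0 also at an unadjusted p under 0.05). Under median-ratio scaling 0 OCT4-SOX2 element genes (limma; 1 at an unadjusted p under 0.05), 2 NuRD subunits, 2 processing genes and 2 paralogs were higher, and 9 partners, 3 processing genes and 8 let-7 targets lower. Quantile normalization gave 6 partners lower and 1 paralog higher. The GC and length correction gave 13 partners higher, 2 processing genes and 7 let-7 targets lower, and Dis3l2 at −0.027. The OCT4-SOX2 element genes called higher were 1 with no filter and 1 without trend and robust moderation. In alternatives chosen after seeing the data, log2 ratios under quantile normalization were 0.068 for Sox2 to Pou5f1, 0.052 for Nanog to Pou5f1, −0.23 for Sall4 to Pou5f1, −1.33 for Utf1 to Pou5f1, −0.54 for Zfp281 to Nanog and −1.11 for Lin28b to Lin28a. With the GC and length correction they were 0.14 for Sox2, −0.057 for Nanog, 0.087 for Sall4 and −0.80 for Utf1 to Pou5f1, −0.20 for Nanog to Sox2 and −1.06 for Lin28b to Lin28a. The cause of these changes was not tested.

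The replicate numbers pair nothing by the labels, and deviations of same-numbered libraries correlated at −0.001, 0.016 and 0.086. With the replicate block 6203 genes were higher and 3282 lower, against 6300 and 3403 without it, and Zfp281 was the core gene whose call changed (0.40, limma adjusted p = 0.0456). Ratios compared within pairs have a smallest exact p of 0.25. FPKM without counts leaves the precision of Lin28b, at 9.06 FPKM in Max-KO and 10.4 FPKM in WT, unstated.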
